A study of Gallus gallus with 4 samples.

Results

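Cyclins are the regulatory subunits of cyclin-dependent kinases (CDKs), and the A, B, C, D and E type cyclins were followed here in chicken DT40 cells that lost the nuclear actin-related protein Arp6. The member list held 10 gene symbols. A probe set was a member when its only gene symbol in the platform annotation was one of them, which gave 20 probe sets of 9 genes (CCNA1, CCNA2, CCNB3, CCNC, CCND1, CCND2, CCND3, CCNE1 and CCNE2) out of 38439 probe sets other than controls. No probe set carried the symbol CCNB2. The RefSeq table of assembly GRCg7b gives CCNB2 as a synonym of the chicken gene CCNB1, which has 1 probe set, and that gene is described beside the members without being counted among them.

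DT40 is a chicken B cell lymphoma line. In the cells used here the Arp6 gene (ACTR6) had been disrupted by replacing exons 6 to 11 with drug resistance cassettes, and Arp6 came from a transgene that tetracycline switches off. The 4 arrays were day 0 (Arp6 on, no tetracycline) and days 2, 4 and 6 in tetracycline at 2 ug/ml (Arp6 off), all from conditional knockout cells, with 1 array for each day. The labels do not say how many clones were used. Time in culture, tetracycline and loss of Arp6 changed together, so they cannot be told apart, and with 1 array per day no difference between days has a replicate check or a p-value.

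D-type cyclins work with CDK4 and CDK6 in G1, E-type cyclins with CDK2 at the entry to S phase, A-type cyclins with CDK2 and CDK1 through S and G2, and B-type cyclins with CDK1 in mitosis. Cyclin C differs from these, as it is best known as the partner of CDK8 and CDK19 in the kinase module of Mediator, the complex that links transcription factors to RNA polymerase II. Many cyclin transcripts rise and fall with the cell cycle, so in a dividing culture their levels depend both on the phases the cells are in and on the RNA of each cell, and in bulk RNA fewer cells of a kind and less RNA per cell cannot be told apart.

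Signals are linear array intensities scaled to a common median across the 4 arrays, and background is the 95th percentile of 59 control probe sets to which no RNA was added, 25.4, 24.9, 32.1 and 45.9 after scaling at days 0, 2, 4 and 6. A log2 ratio is the later day minus day 0, computed with signals below 19.4 raised to that floor. ACTR6 followed the labels: the probe set with its higher mean read 7002, 318, 331 and 383 at days 0, 2, 4 and 6. Its second probe set read 7086, 4.32, 29.7 and 8.39, below background on every later array. These signals were at least 285-fold, 220-fold and 154-fold lower than day 0. Of the 20 cyclin probe sets, 13 were above background on all 4 arrays, 5 on some and 2 on none. The array of day 6 had 41.3% of all probe sets above background, against 51.4% on that of day 0. The ratio of the actin probe sets at the 3′ and 5′ ends, a sign of RNA quality, was 2.07, 1.65, 1.84 and 2.22 at days 0, 2, 4 and 6. The same ratio for the GAPDH probe sets was 0.94, 0.87, 0.89 and 0.88. The filter on dim values kept 15 of the 20 cyclin probe sets, and all 9 genes were left with at least 1 probe set. The kept probe set with the highest mean was used for each gene, among 8026 genes tested in all.

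Repeat measurement came only from genes with several probe sets on the same array. Over the 3577 genes with 2 kept probe sets, the log2 ratios of the 2 brightest differed by a median of 0.31, 0.38 and 0.41 at days 2, 4 and 6, and in 1 gene of 10 by more than 0.97, 1.18 and 1.24. Where both had mean signals of at least 200 (1278 genes) the medians were 0.19, 0.23 and 0.25 and the 90th percentiles 0.50, 0.67 and 0.70. These figures hold error between probes and not error between cultures or arrays.

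**Figure D1:**
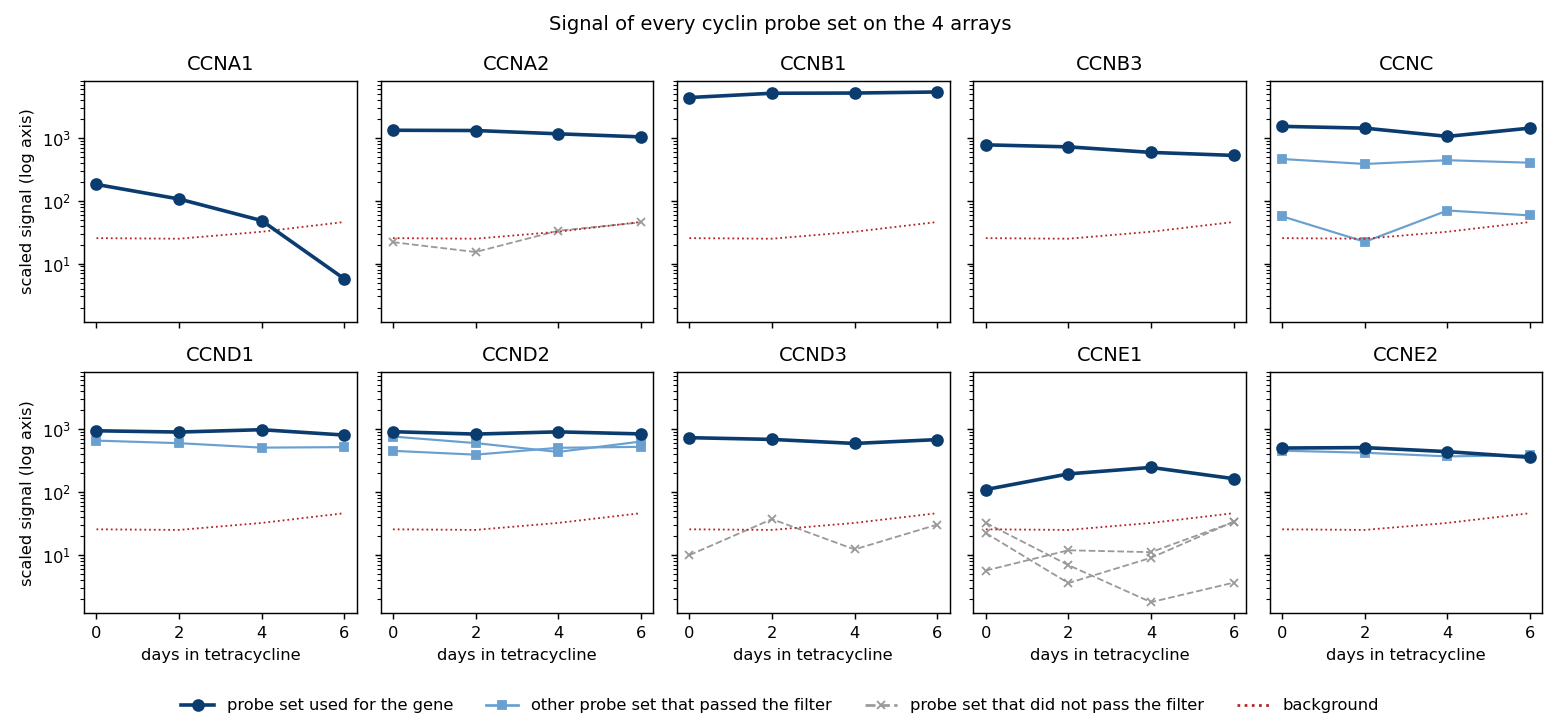
Scaled signal (log axis) of every probe set of the 9 cyclin genes and of CCNB1 against days in tetracycline, 1 array per day. Dark lines are the probe sets used, light squares other probe sets that passed the filter, grey crosses those that did not, and the dotted line is background. CCNA1 reads 182, 107, 48.4 and 5.73 at days 0, 2, 4 and 6, the last below background, CCNE1 is highest at day 4 with 246, and the dark lines of the other genes stay within 2-fold of day 0.

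Among the A-type cyclins, CCNA1 had the largest difference of any member. CCNA1 encodes cyclin A1, which in mice acts mainly in male germ cells. Its 1 probe set read 182 at day 0, 107 at day 2, 48.4 at day 4 and 5.73 at day 6. Each later array was lower than the one before it, and the day 6 signal lay below background. CCNA1 was 1.71-fold lower at day 2 than at day 0 and 3.76-fold lower at day 4. Against the background level, the day 6 difference was at least 3.96-fold lower. With the floor these are log2 ratios of -0.77, -1.91 and -3.23. At day 2 the ratio was the 476th lowest of the 8026 genes and at day 4 the 48th lowest, while the day 6 value has no rank because it lies at the floor. The day 4 difference was larger than the 1.18 that 9 in 10 pairs of probe sets stayed within, and CCNA1 has no other probe set to set against it.

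CCNA2 encodes cyclin A2, the A-type cyclin of dividing somatic cells. Its bright probe set read 1323, 1311, 1162 and 1038 at days 0, 2, 4 and 6. The signal was lower at each step, with log2 ratios of -0.01, -0.19 and -0.35, all inside the spread between bright probe sets of a gene. A different CCNA2 probe set read 21.9, 15.3, 33.4 and 45.3. It was above background at day 4 alone and did not pass the filter. At day 4 it was at least 1.31-fold higher than at day 0, where the bright probe set was lower. The 2 A-type genes moved apart on these arrays: the log2 ratio of CCNA1 minus that of CCNA2 was -0.76, -1.72 and -2.88 at days 2, 4 and 6. Scaling one array against another cancels in such a difference, although the day 6 value includes the floor.

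CCNB3 encodes a B-type cyclin that was described in chicken cells as a nuclear protein. It read 776, 720, 588 and 527 at days 0, 2, 4 and 6, lower at each step. Its log2 ratios were -0.11, -0.40 and -0.56, and the last is a 1.47-fold lower signal at day 6, still inside the 0.70 within which 9 in 10 bright pairs of probe sets agreed. CCNB1, the gene that has CCNB2 as a synonym, encodes the mitotic partner of CDK1 and read 4387, 5135, 5173 and 5378 on the same arrays. The 3 later arrays were all above day 0, at log2 ratios of 0.23, 0.24 and 0.29. CCNB1 minus CCNB3 came to 0.33, 0.64 and 0.85, so the B-type genes drew apart by a growing amount, although each differed from day 0 by less than 2-fold.

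Among the E-type cyclins, which with CDK2 drive entry into S phase, CCNE1 was the 1 member to exceed day 0 by 2-fold. Its bright probe set, of the Affymetrix kind whose probes match more than 1 transcript, read 109, 194, 246 and 163 at days 0, 2, 4 and 6. All 3 later arrays were above day 0 and the highest was day 4. The differences were 1.77-fold, 2.25-fold and 1.49-fold, or 0.83, 1.17 and 0.57 on the log2 scale, and the step from day 4 to day 6 was -0.59. In rank, CCNE1 was the 306th highest gene at day 2, the 325th at day 4 and the 1421st at day 6. The day 4 ratio was just inside the 1.18 that 9 in 10 pairs of probe sets stayed within. It was under 2-fold with the deposited values unscaled (0.92) and with a pseudocount in place of the floor (0.99). The probe sets used for CCND1, CCND3 and ACTR6 are also of the kind that matches more than 1 transcript. So is another probe set each of CCNC, CCND2 and CCNE2.

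CCNE1 has 3 more probe sets, none of which passed the filter. One, designed on the same transcript, read 32.2 at day 0, above background, and 6.85, 1.77 and 3.61 at days 2, 4 and 6, below it. It was thus at least 1.29-fold lower at day 2, where the probe set used was 1.77-fold higher. A further probe set read 22.1, 3.55, 8.97 and 33.6, and the last 5.62, 11.8, 11.0 and 33.2, both below background on all 4 arrays. The higher CCNE1 signal therefore rests on a single probe set, and the one on the same transcript went the other way at day 2.

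CCNE2, the second E-type gene, read 500, 508, 438 and 355 at days 0, 2, 4 and 6 with 1 probe set and 454, 420, 368 and 385 with the other. The arrays of days 4 and 6 were the lowest 2 in both. The log2 ratios were 0.02, -0.19 and -0.49 for the first and -0.11, -0.30 and -0.24 for the second, so both lay below day 0 at days 4 and 6. CCNE1 minus CCNE2 was 0.80, 1.36 and 1.07, with CCNE1 read from its single kept probe set. Array scaling cancels in this difference, so the deposited values, 75th percentile scaling and spike-in scaling are no check on it. Across all settings of the processing it lay between 0.67 and 0.87 at day 2 and between 1.17 and 1.42 at day 4. At day 6 CCNE1 and CCNE2 stood at 0.47 and -0.46 with a pseudocount in place of the floor. With the mean of all kept probe sets they stood at 0.57 and -0.37. In both settings the 2 genes were less than 2-fold apart at day 6.

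The D-type cyclins carry growth signals into G1, and in mouse B cells CCND2 and CCND3 are the main ones. CCND2 read 909, 833, 904 and 838 at days 0, 2, 4 and 6, within 0.13 of day 0 on the log2 scale on every later array. Its other 2 probe sets read 451, 392, 504 and 522, and 761, 599, 433 and 634. At day 4 these disagreed, at log2 ratios of 0.16 and -0.81 against -0.01 for the probe set used. CCND3 read 731, 685, 591 and 680, with ratios of -0.09, -0.31 and -0.10 and its lowest signal at day 4. A second CCND3 probe set read 9.89, 37.0, 12.2 and 30.2, above background at day 2 alone, and did not pass the filter.

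CCND1, which is scarce in normal lymphocytes of mice and humans, was above background on all 4 arrays by both its probe sets. They read 940, 897, 978 and 804, and 656, 597, 507 and 517, at days 0, 2, 4 and 6. The log2 ratios were -0.07, 0.06 and -0.23 for the first and -0.14, -0.37 and -0.34 for the second, so the first was lowest at day 6 and the second at days 4 and 6, and neither was 2-fold different. By the probe sets used, no pair of the 3 D-type genes differed by more than 0.36 in log2 ratio, reached by CCND1 minus CCND3 at day 4. At day 6 the 3 pairs differed by 0.12 at most (CCND1 minus CCND3, -0.12). Other kept probe sets lay further apart: at day 4 one of CCND2 stood at -0.81, against 0.06 for the CCND1 probe set used.

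CCNC, the Mediator cyclin, read 1526, 1429, 1057 and 1433 at days 0, 2, 4 and 6. It was lowest at day 4, at a log2 ratio of -0.53, and stood at -0.09 on either side of that day. Its second probe set read 461, 385, 442 and 403 (-0.26, -0.06 and -0.20) and did not show the low signal at day 4. The dimmest one read 56.5, 22.2, 69.9 and 58.5 and dipped under background on the day 2 array, to a signal at least 2.27-fold lower than that of day 0. Neither of the brighter probe sets was 2-fold lower there.

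**Figure D2:**
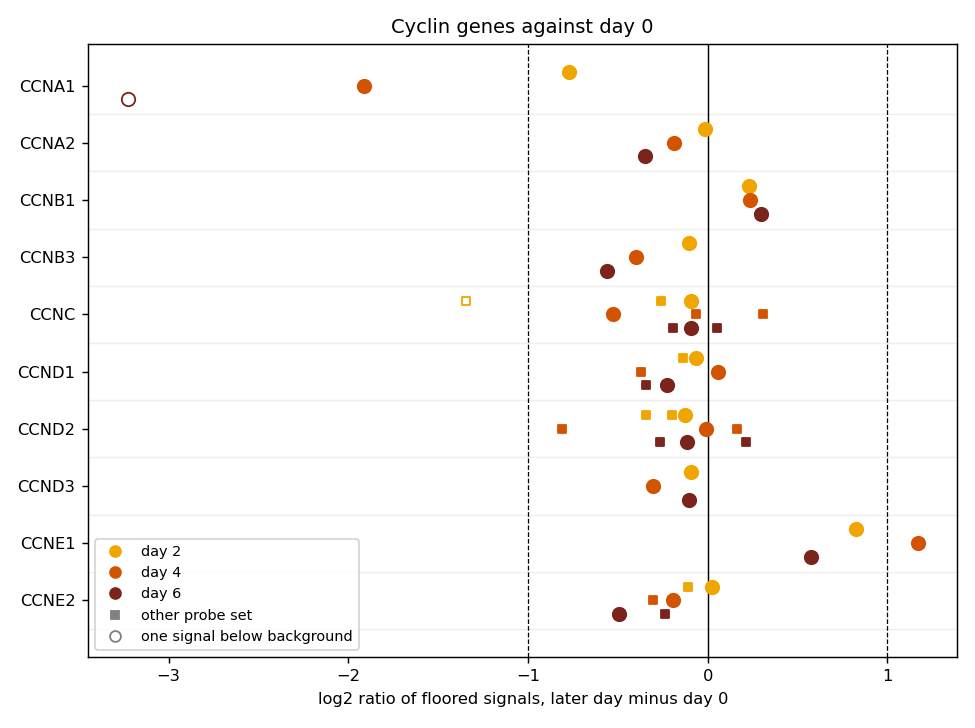
Log2 ratio of floored signals, later day minus day 0, for each cyclin gene at days 2, 4 and 6. Circles are the probe set used, squares other probe sets that passed the filter, open symbols have a signal below background in the ratio, and dashed lines mark 2-fold. CCNA1 lies at -1.91 and -3.23 at days 4 and 6, CCNE1 at 1.17 at day 4, and all other circles lie between the dashed lines.

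Counted over the 9 genes, 0 were 2-fold higher and 0 were 2-fold lower at day 2, when 2.42% and 2.97% of the 8026 genes were. At day 4, 1 was higher (CCNE1) and 1 lower (CCNA1), against 5.77% and 5.12% of all genes, and at day 6, 0 were higher and 1 lower (CCNA1), against 8.48% and 8.35%. With 9 genes, 1 gene is 11.1%, so these counts are near the background and say little about the cyclins as a set. The median log2 ratio of the 9 genes was -0.09, -0.19 and -0.23 at days 2, 4 and 6, against -0.01, 0.0033 and -0.0091 for all genes. Scaling to the spike-in controls put the day 4 median of the cyclins at 0.17 and that of all genes at 0.37. Below day 0 lay 7, 7 and 8 of the 9 genes, and 51.5%, 49.6% and 50.7% of all genes. These counts depend on the scaling. With spike-in scaling CCNA2, CCND2, CCND3 and CCNE2 moved above day 0 at day 4, at 0.17, 0.35, 0.06 and 0.17. At day 6 CCNC, CCND2 and CCND3 did so, at 0.13, 0.11 and 0.12. CCNE2 moved below day 0 at day 2, at -0.07.

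Of the 9 members 3, CCNA1, CCNA2 and CCNB3, were lower at each step from day 0 to day 6, and 0 were higher at each step. Among all genes 10.3% were lower and 9.87% higher at each step. The member count depends on the scaling. With spike-in scaling CCNA2 stood at -0.11, 0.17 and -0.13 at days 2, 4 and 6, and CCNB3 at -0.20, -0.04 and -0.33. Neither was then lower at each step. A straight line over days, fitted with limma across all genes, called 0 members and 0 of 8026 genes (0.0%) at a Benjamini-Hochberg adjusted p under 0.05. At an unadjusted p under 0.05 it had 2 of the 9 members and 1480 genes in all, which is 18.4% of the 8026 genes. These members were CCNA1, with a slope of -0.54 ± 0.05 (SE) log2 per day over 4 arrays and an adjusted p of 0.16, and CCNB3, with -0.10 ± 0.03 and an adjusted p of 0.26 (limma). With limma-trend, which lets the variance depend on the signal, CCNA1 had an adjusted p of 0.0055. It was the 1 member among the 604 of 8026 genes called. In both fits the day 6 value of CCNA1 is the floor and not a measured signal, so its slope, SE and p depend on the floor. This fit measures departure from a line on 4 arrays and holds no replicate error.

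The genes whose ratios lay closest to those of the 3 members with the largest differences were found by the root mean square difference over the 3 log2 ratios. Genes with locus-like symbols, such as those starting with LOC, were left out. For CCNA1 they were EVI2A (0.10), AMY2A (0.18) and DOK3 (0.21). These distances depend on the floor, which sets the day 6 ratio of CCNA1. EVI2A read 866, 555, 250 and 94.4 at days 0, 2, 4 and 6, above background throughout, whereas AMY2A and DOK3, like CCNA1, were below background at day 6. For CCNE1 they were GLTSCR1L (0.06), MAF (0.08) and CCDC171 (0.09), all dim genes. MAF and CCDC171 were above background on 2 of the 4 arrays, and the day 0 signal of MAF (18.5) lay under the floor. For CCNB3 the closest genes were COQ5, FNTB and MED17 (each 0.02). Likeness over 3 ratios from 4 arrays is a description only, since many genes have ratios as small as those of CCNB3.

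B cell markers, like CCNA1, had lower signals on the later arrays. All 6 of the 8 listed markers that were tested (PAX5, CD79B, BTK, SYK, POU2AF1 and IKZF1) lay below day 0 on each later array, and their summed signal was 7016, 5084, 4140 and 2856 at days 0, 2, 4 and 6. The list's median log2 ratio was -0.52, -0.62 and -1.21 at days 2, 4 and 6. On those days 0, 1 and 3 of its members were 2-fold lower, against 2.97%, 5.12% and 8.35% of all genes. All 6 were above background on all 4 arrays, and the labelled cell type was a B cell line. Markers of other cells were few above background: of 6 fibroblast markers LUM alone was above it on all 4 arrays (37.2, 92.6, 344 and 1069), of 6 T cell markers CD3D alone (2382, 2020, 1238 and 911) and of 5 macrophage and granulocyte markers CSF1R alone (56.5, 69.6, 40.8 and 123). CTSS, the brightest of the last list at days 0, 2 and 4, read 421, 313, 174 and 29.0, under background at day 6 and at least 9.17-fold lower there. The summed tested signals at days 0, 2, 4 and 6 were 68.2, 115, 411 and 1158 for fibroblast markers, 2403, 2049, 1265 and 960 for T cell markers and 519, 401, 325 and 192 for macrophage and granulocyte markers. The first sum was higher and the others lower at each step, with CTSS making up most of the last sum at days 0, 2 and 4. These sums rest on 2, 2 and 3 tested genes, and some genes went against their sum. CD8A, under background at day 0, was at least 1.94-fold higher at day 6, and CSF1R had a log2 ratio of 1.13 there. MARCO read 41.6 at day 0 and 109 at day 4. FN1, a fibroblast marker, went against its sum at day 2 alone, when it was under background and at least 1.24-fold lower. It was higher than day 0 at days 4 and 6, at log2 ratios of 1.10 and 1.53. Of 4 erythroid markers 1, HBAD, was tested, at 18.2 to 55.4. The part of any of these in the cyclin values was not tested.

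In the list of cyclin-dependent kinases, which leaves out CDK8 and CDK19, no gene was 2-fold different at day 6 by the probe set used. Of 15 CDK genes listed 10 were tested, and CDK12, a kinase of RNA polymerase II, was the 1 that differed 2-fold on any day (1.06 at day 2, 0.67 and -0.17 at days 4 and 6). Of all genes, 2.42%, 5.77% and 8.48% were 2-fold higher at days 2, 4 and 6, and 2.97%, 5.12% and 8.35% lower. With 10 genes tested, these counts say little about the kinases as a set. The largest absolute ratios at day 6 were those of CDK7, the kinase that activates other CDKs, at -0.05, 0.11 and -0.89, and CDK14, at -0.60, -0.87 and -0.52. The other CDK14 probe sets stood at 0.21 and 1.54 at day 6 and so went against it. Of the direct partners, named here after their values were seen, CDK1 stood at 0.11, 0.12 and 0.04 and CDK6 at 0.48, 0.13 and 0.26, the other 4 probe sets of which lay between 0.58 and 1.72 at day 6. That highest ratio belongs to a dim probe set with its day 0 signal under background, and as a bound it is a difference of at least 3.04-fold. CDK2 and CDK4 were not named on the array and were not analysed here.

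Among CDK inhibitors, 3 of 7 listed genes were tested. CDKN2C, an inhibitor of CDK4 and CDK6, read 176, 109, 207 and 62.6 at days 0, 2, 4 and 6. It was 2-fold lower at day 6 (-1.49) with day 4 above day 0 (0.23). Its second probe set was dim, at 29.5 at day 0 and 31.4, under background, at day 6, and gave 0.09. CDKN1B, which encodes p27 and binds cyclin E and cyclin A complexes, stood at -0.03, 0.42 and 0.96, and at -0.22, 0.30 and 0.17 by its second probe set.

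In the list of CDK activation and the mitotic switch, 10 genes were tested. At day 6, 0 of them were 2-fold lower and 1 was higher, against 8.35% and 8.48% of all genes. This was MNAT1, the assembly factor of the CDK-activating kinase, at 298, 364, 522 and 678 on days 0, 2, 4 and 6, higher at each step, with log2 ratios of 0.29, 0.81 and 1.19. Of its partners in that kinase, CCNH (cyclin H) stood at 0.82, 0.83 and 0.69, and CDK7 was the gene at -0.89 at day 6. A second and dim CCNH probe set gave -0.40, -0.12 and 1.27, with its signals under background at days 2 and 4.

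The RB, E2F and DREAM list, the factors that control transcription of E-type and A-type cyclin genes, had 18 of 21 genes tested and a median of -0.16, -0.03 and -0.38 at days 2, 4 and 6, with 0, 0 and 0 genes 2-fold higher and 0, 1 and 3 lower. Of all genes, 2.42%, 5.77% and 8.48% were 2-fold higher and 2.97%, 5.12% and 8.35% lower on these days. At day 6, 14 of the 18 lay below day 0, as did 50.7% of all genes. RB1, the retinoblastoma repressor of E2F, read 240, 186, 235 and 118 and stood at -1.02 at day 6, but its second probe set gave 0.09. E2F3, an activator of S phase genes, read 92.9, 78.8, 122 and 28.9, and its day 6 signal, under background, was at least 2.02-fold lower. LIN54, a DNA-binding subunit of DREAM, was 41.0 at day 0 and below background at day 6 (17.7), too dim for a bound.

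The APC/C and SCF ligases, which mark cyclins for destruction, had 22 of 27 genes tested and a median of 0.06, 0.03 and -0.11. At days 2, 4 and 6, 0, 0 and 2 genes were 2-fold higher, against 2.42%, 5.77% and 8.48% of all genes. Lower by 2-fold were 0, 2 and 1, against 2.97%, 5.12% and 8.35%. CDC26, a subunit of the APC/C, read 302, 234, 86.9 and 105 at days 0, 2, 4 and 6, and its ratios were -0.36, -1.80 and -1.52. FBXO5 (EMI1), an inhibitor of the APC/C, read 21.3, 36.5, 33.4 and 80.7. Its day 0 signal lay under background, so the day 6 signal was at least 3.17-fold higher. BTRC, the F-box protein of the SCF complex that targets EMI1, was 2-fold higher on the floored scale at day 6 (1.15), with both signals below background.

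CCNC has its kinase partners in the Mediator kinase module, of which 5 of 6 genes were tested, with medians of -0.14, 0.10 and 0.38. CDK19 read 280, 213, 76.0 and 71.6 at days 0, 2, 4 and 6, at log2 ratios of -0.40, -1.88 and -1.97, so it was more than 2-fold lower on both of the last days. A second and dimmer probe set read 62.3, 55.2, 17.9 and 28.7, with the last 2 signals under background, at least 1.94-fold and 1.36-fold lower than day 0. CDK8, the other kinase that binds cyclin C, named after its values were seen, stood at -0.14, 0.10 and 0.38. The paralogous kinases thus lay on opposite sides of day 0 at days 4 and 6, while CCNC itself was at -0.53 and -0.09.

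In the list of other cyclins, which holds CCNB1 and otherwise genes outside the A to E types, 12 of 14 were tested. Their medians were 0.08, 0.13 and 0.15. At day 6, 1 of them was 2-fold higher and 1 lower, against 8.48% and 8.35% of all genes. CCNG2, an atypical cyclin linked to cell cycle arrest in mammalian cells, read 842, 308, 482 and 320 at days 0, 2, 4 and 6. All 3 later arrays were below day 0, at log2 ratios of -1.45, -0.81 and -1.39, and the second probe set gave -0.88, -0.87 and -1.09. CCNY, a membrane-bound cyclin that partners CDK14 in mammalian cells, read 124, 200, 154 and 522 and stood at 0.69, 0.31 and 2.07. A second probe set gave 1.98 at day 6, and the remaining one, under background at day 0, was at least 2.90-fold higher. All 3 CCNY probe sets were therefore at least 2.90-fold higher at day 6, while the 2 that were above background on every array stayed within 2-fold of day 0 at days 2 and 4.

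**Figure D3:**
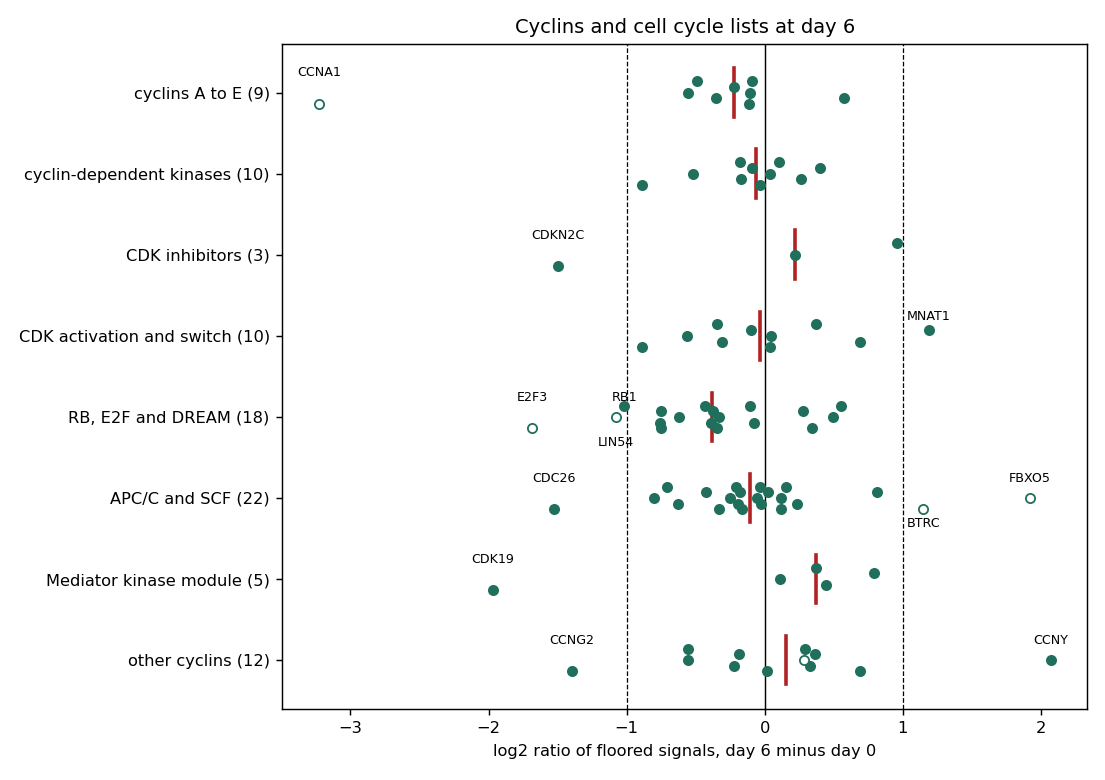
Log2 ratio of floored signals, day 6 minus day 0, for the 9 cyclin genes (top) and 7 lists of cell cycle genes, with the number tested in brackets. Each point is a gene, open where a signal in the ratio was below background, the red bar is the list median, dashed lines mark 2-fold and genes beyond them are named. The list medians lie between -0.38 (RB, E2F and DREAM) and 0.38 (Mediator kinase module).

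Across the 7 lists, which share some genes, 78 different genes were tested. At day 2, 1 was 2-fold higher and 1 lower, or 1.28% of them each, against 2.42% and 2.97% of all genes. At day 4 the counts were 0 and 4, or 0% and 5.13%, against 5.77% and 5.12% of all genes. At day 6 they were 4 and 7, or 5.13% and 8.97%, against 8.48% and 8.35%.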

How the data were processed

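Gene expression in polyadenylated RNA was measured on GeneChip chicken arrays (Affymetrix), 1 for each of 4 days, per the labels' protocols. The deposited values are linear intensities, 1 per probe set and array, made by the authors with GeneChip Operating Software, per the series' design text. How the signal was computed, and whether arrays were scaled, is not stated in the sources used here.

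From these, 96 control probe sets were left out and probe sets with a mean log2 signal at or above that of 29.1, the median of all values, were kept (16658). Arrays were scaled to the same median of kept probe sets, by 0.859, 0.962, 1.02 and 1.19 at days 0, 2, 4 and 6, and signals under the 40th percentile (19.4) were raised to it. A ratio with its dimmer signal below background is given as a bound ("at least") against the background level. Genes were counted at a 2-fold difference on the floored scale. A straight line over days was fitted to all 8026 genes in R 4.3.3 with limma 3.58.1, whose moderated test is 2-sided here, with 2 residual degrees of freedom and p-values adjusted by the Benjamini-Hochberg method. The fit was also run on simulated data with known slopes and the same noise level in every gene. That run is no check on noise that varies with the signal or between arrays. Other steps used Python 3.11.15, numpy 2.4.6, pandas 2.3.3 and matplotlib 3.10.9. Precision is limited by the number of arrays.

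Symbols came from the platform annotation: 27168 probe sets had 1 symbol, 177 several and 11094 none. Names in the text are every member and ACTR6; list genes 2-fold different at day 6, or otherwise the 2 largest of a list; and the 3 genes most like each of 3 members. Others were named after their values were seen. The members and lists were chosen with earlier results of these data known. The alternatives changed the scaling (unscaled, quantile, upper quartile or the 27 spike-in probe sets), the filter, the floor (or a pseudocount of 29.1), the choice of probe set, the threshold (1.5-fold, 3-fold) and the trend (log2 of day + 1, limma-trend, leaving out a day).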

Additional observations from a re-analysis of the deposited data

How the results depend on the processing

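The number of cyclin genes 2-fold different was 0 at day 2, and 2 with a 1.5-fold threshold. At day 4 it was 2, and 1 with the deposited values unscaled, a pseudocount or a 3-fold threshold (CCNA1 in each), and 1 with the filter at the 75th percentile (CCNE1), which left out CCNA1. At day 6 it was 1, 2 with unscaled values (CCNA1, and CCNB3 at -1.03) and 0 with the stricter filter. CCNA1 was 2-fold lower at days 4 and 6 under every setting that tested it, from -3.43 to -2.07 at day 6 apart from -4.99 with a floor at a signal of 1. Leaving arrays unscaled put the median of all genes at -0.17, -0.24 and -0.48 at days 2, 4 and 6, and spike-in scaling gave -0.10, 0.37 and 0.21. The cyclin median at day 6 was -0.69 unscaled and -0.0019 with spike-in scaling. The cyclin median minus that of all genes was negative under all 10 alternatives, between -0.30 and -0.13 at day 6. Scaling of whole arrays nearly cancels in this difference. It was -0.22 at day 6 unscaled, with 75th percentile scaling and with spike-in scaling, so those settings are no check on it. The trend called 0 members, but 1 (CCNA1) with spike-in scaling (adjusted p of 0.023, limma) and with limma-trend. Its adjusted p lay between 0.061 and 0.48 in the other alternatives. The 7 lists held 11 genes 2-fold different at day 6, 20 with unscaled values and 7 with the stricter filter. The settings for the lists, for the differences between 2 cyclins and for probe set agreement were chosen after seeing the data. No called ratio of a cyclin changed sign. Some ratios under 2-fold did, such as those of CCNA2, CCND2, CCND3 and CCNE2 at day 4 with spike-in scaling. The cause of each change was not tested, apart from the stricter filter, which left fewer genes. No paired analysis was possible because each day has 1 array. Dim signals limit CCNA1 at day 6 and the 5 of 20 cyclin probe sets that did not pass the filter.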
